A study of Mus musculus with 2 samples.

Results

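The Id inhibitors and E proteins comprise 6 genes chosen by name, Id1, Id2, Id3, Tcf3, Tcf4 and Tcf12. Of these, 5 are among the 10219 genes of the deposited count table; Id1 was not analysed here. E proteins, the products of Tcf3, Tcf4 and Tcf12, are basic helix-loop-helix (bHLH) transcription factors that bind DNA as dimers at the E-box motif. Id proteins carry the helix-loop-helix but lack the basic region that contacts DNA, so an E protein paired with an Id protein cannot bind. In mouse T cells Id2 is known for its role in effector cells and Id3 for its role in naive and memory cells; both help to maintain regulatory T cells (Tregs), and Id2 supports the Tregs that reside in fat.

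RNA was sequenced from Tregs sorted out of fat of 4-month-old C57BL/6 mice. The knockout sample came from Hif1afl/fl;Foxp3Cre mice, in which Cre recombinase made with Foxp3, the lineage factor of Tregs, is directed at the floxed part of Hif1a. The control sample came from Foxp3Cre mice, which carry the same Cre. The labels do not give the fat depot, the sort markers, the floxed exons or the number of mice behind a library. With 1 library per genotype, no value has an error between animals, and each difference is one between 2 libraries that no replicate checks.

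Counts over the listed genes totalled 11337415 for the knockout sample and 13472317 for the control sample, and no listed gene had a mean count below 50.5. A gene with fewer counts than this in 1 library was listed only where the other library raised its mean. At low counts, listed genes thus lean towards a difference between the libraries. Hif1a, the targeted gene, stood at 780 counts per 1000000 (CPM) in the knockout sample and 1273 in the control sample. This was 1.63-fold lower (95% counting interval 1.59 to 1.68). It is a limited check, because counts per gene do not separate the floxed part from other exons, nor Tregs from other cells. Counts of genes past a fold, here and below, apply the fold to the log2 ratio on CPM + 0.5, while a fold given for a gene is the ratio of its scaled counts. Of 13 pan T cell markers, all listed, 11 were within 2-fold. The other 2, Trbc1 and Trbc2, were 2.37-fold and 2.27-fold higher, beside 10.9% of all listed genes past 2-fold upward. Of the 13, 11 had a log2 ratio above 0 and 2 below, with a median of 0.21 (binomial interval 0.01 to 0.91). Cd2, with the most counts, stood at 1674 CPM in the knockout sample and 1660 CPM in the control sample. All 9 Treg markers were listed and 2 were at least 2-fold lower, Il2ra and Foxp3, beside 8.41% of all listed genes. Of the 9, 8 had a log2 ratio below 0, and the median was -0.59 (binomial interval -1.15 to -0.14). All 7 listed macrophage markers, of 19 in the list, were higher in the knockout sample, by log2 ratios of 3.21 to 7.17. Their summed level was 3816 CPM in the knockout sample and 250 CPM in the control sample. Fcgr1, Pf4 and Lyz2 had 50, 32 and 35 control counts, so their listing rests on their knockout counts.

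The bases upstream of the transcription starts of Id2 and Id3 are shown first, because these inhibitor genes differed in opposite directions between the libraries. They come from RefSeq on build GRCm38.p6, where the table of promoters used here held 4 of the 5 measured members; Tcf4 is named only. Both run 5′ to 3′ in the direction of the gene and end at the base before its start. Id2 lies on the minus strand (chr12:25096093-25096342) and Id3 on the plus strand (chr4:136143572-136143821). Capitals mark the E-box, CANNTG, and the core of the hypoxia response element that HIF-1 binds, ACGTG or GCGTG, on either strand; CACGTG would count as both.
Id2: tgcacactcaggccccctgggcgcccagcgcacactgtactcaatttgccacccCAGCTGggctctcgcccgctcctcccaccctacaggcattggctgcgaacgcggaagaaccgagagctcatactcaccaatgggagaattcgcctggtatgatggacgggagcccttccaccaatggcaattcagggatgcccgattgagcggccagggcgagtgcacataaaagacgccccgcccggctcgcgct
Id3: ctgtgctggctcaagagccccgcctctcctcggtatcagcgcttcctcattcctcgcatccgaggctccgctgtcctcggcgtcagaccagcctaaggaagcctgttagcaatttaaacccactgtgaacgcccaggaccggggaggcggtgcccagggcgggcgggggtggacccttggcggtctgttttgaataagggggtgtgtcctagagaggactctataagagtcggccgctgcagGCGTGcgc

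The Id2 window held 1 E-box, CAGCTG, which begins 196 bases before the start, and no hypoxia core. It also held 1 GGCGCC, the GC-rich element of BMP-activated Smad factors, which begins 231 bases before the start and is left in lower case. The Id3 window held 1 hypoxia core, GCGTG, which begins 8 bases before the start, and neither an E-box nor GGCGCC. Tcf3 had 1 E-box and 2 GCGTG cores in its window. The first listed start of Tcf12 had 1 E-box and no core, its second had 1 of each and its last had neither. Over the first listed window of 27025 genes, CANNTG was in 66.0%, ACGTG in 16.6%, GCGTG in 28.2% and GGCGCC in 9.54%. A match is a description of these letters only.

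Id2 transcripts were lower and Id3 transcripts higher in the knockout sample, and all 3 E protein genes stood above their control values by folds between 1.22 and 3.64. By the 2-fold rule, 2 of the 5 measured members were higher, Id3 and Tcf4, beside 10.9% of all listed genes, and 1 was lower, Id2, beside 8.41% of all listed genes. At 4-fold, 1 member was higher, Id3, beside 3.42% of all listed genes, and 0 were lower, beside 1.58%. At 1.5-fold, Tcf12 was also higher, 3 of 5 beside 20.2%, and 1 was lower, beside 18.5%. In bulk samples, fewer cells of a type and less RNA per cell cannot be told apart.

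Id2 (ENSMUSG00000020644) had 5623 counts in the knockout sample and 15429 counts in the control sample. Scaled for library size, this was 489 CPM in the knockout sample and 1161 CPM in the control sample. The gene was therefore 2.37-fold lower in the knockout sample (counting interval 2.3 to 2.45), with a log2 ratio of -1.25. Of the 10219 listed genes, 588 had a lower log2 ratio than Id2, which placed it at percentile 5.76.

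Id3 (ENSMUSG00000007872) had 532 counts in the knockout sample and 85 counts in the control sample. Its level was 46.3 CPM in the knockout sample and 6.39 CPM in the control sample. This was a 7.24-fold higher level (5.75 to 9.21), at a log2 ratio of 2.76 on CPM + 0.5. Only 181 of the listed genes had a higher log2 ratio, which placed Id3 at percentile 98.2.

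Among the E protein genes, Tcf4 (ENSMUSG00000053477), the E protein on which plasmacytoid dendritic cells depend, differed most. It had 236 counts, 20.5 CPM, in the knockout sample and 75 counts, 5.64 CPM, in the control sample, a 3.64-fold higher level (2.80 to 4.79). With a log2 ratio of 1.78 it stood at percentile 95.7 of all listed genes. It is not the gene of the Wnt pathway factor that shares its older name.

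Tcf12 (ENSMUSG00000032228) encodes HEB, an E protein needed in developing thymocytes. It had 980 counts, 85.3 CPM, in the knockout sample and 692 counts, 52.1 CPM, in the control sample. It was 1.64-fold higher (1.48 to 1.81), at a log2 ratio of 0.71 and percentile 83.4.

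Tcf3 (ENSMUSG00000020167) encodes the E proteins made by alternative splicing that start B cell development and act in early thymocytes. It had 199 counts, 17.3 CPM, in the knockout sample and 188 counts, 14.1 CPM, in the control sample. Its fold of 1.22 had a counting interval of 0.998 to 1.503, so counting error alone did not separate the libraries for this gene. The log2 ratio of 0.28 stood at percentile 66.7.

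**Figure D1:**
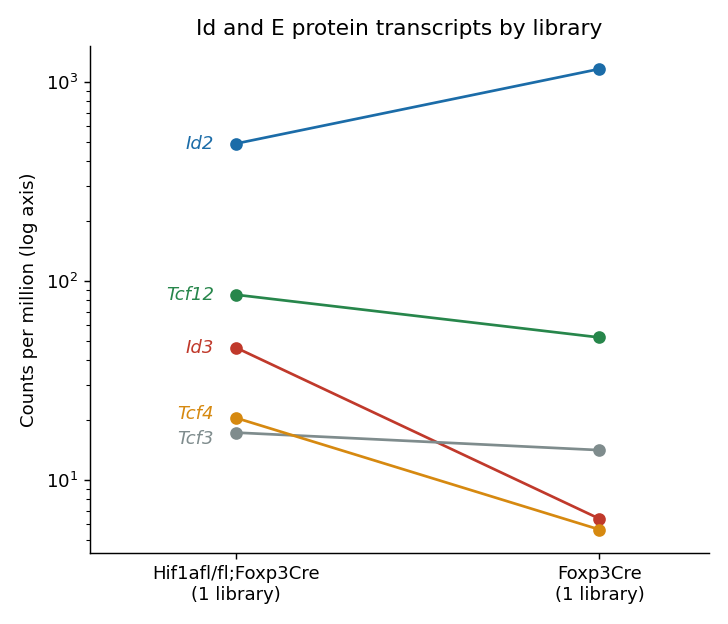
CPM (log axis) of the 5 measured Id and E protein genes in the Hif1afl/fl;Foxp3Cre and Foxp3Cre libraries; each point is 1 library and the lines join the values of a gene. Id2 stood at 489 CPM in the knockout sample and 1161 CPM in the control sample, Id3 at 46.3 CPM in the knockout sample and 6.39 CPM in the control sample, and the lines of Id2 and Id3 slope in opposite directions.

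In the authors' deposited table, 4 of the 5 measured members have an edgeR adjusted p-value under 0.05, as have 73.3% of all listed genes. The exception is Tcf3, with an adjusted p-value of 0.0624 in the authors' deposited table. The authors' values equal those of edgeR's likelihood ratio test with a dispersion of 0 and so compare these libraries, not the genotypes.

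**Figure D2:**
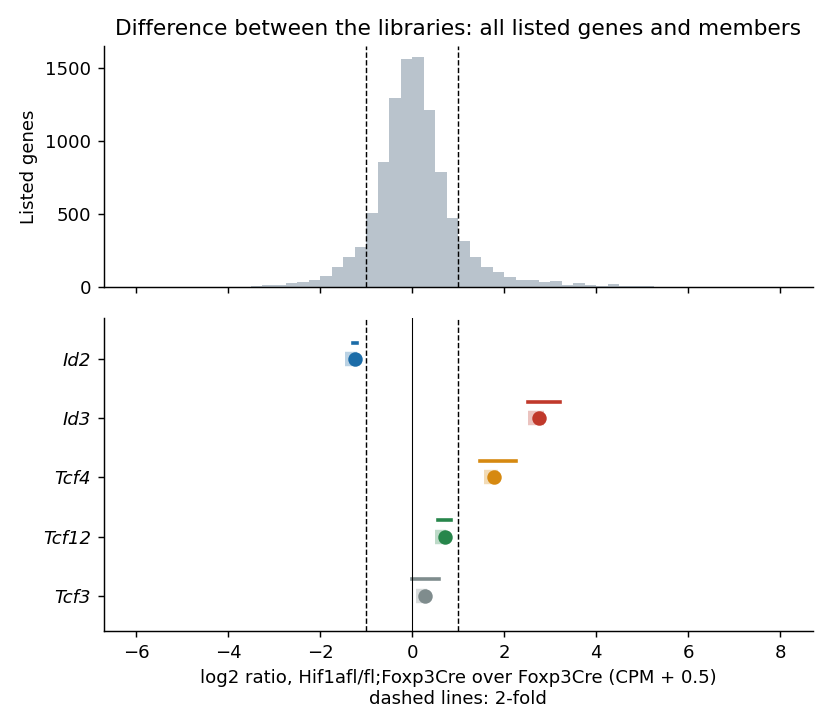
Upper panel, the number of listed genes by log2 ratio of Hif1afl/fl;Foxp3Cre over Foxp3Cre; lower panel, the members on the same axis, with a point for the value, a thin line above it for the 95% counting interval and a pale bar for the range over the other scalings, pseudocounts and corrections tried. Id2 lies at -1.25, left of the 2-fold line, Id3 at 2.76 and Tcf4 at 1.78 lie right of it, and Tcf12 and Tcf3 lie between the lines.

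The balance between the inhibitors is free of library scaling when it is taken within a library. For each Id3 count there were 10.6 Id2 counts in the knockout sample (9.67 to 11.6) and 182 in the control sample (147 to 227). The ratio of Id3 to Id2 was thus 17.2-fold higher in the knockout sample (13.6 to 21.9). Per kilobase of transcript, Id2 exceeded Id3 by 6.14-fold in the knockout sample and 105-fold in the control sample, and with median coding lengths by 10.6-fold in the knockout sample and 183-fold in the control sample. Id3 made up 14.0% of the summed per-kilobase level of both inhibitors in the knockout sample and 0.939% in the control sample. Per kilobase, Id2 was the more abundant inhibitor transcript in both libraries.

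The members were also set side by side per kilobase of the median annotated transcript, in CPM per kilobase. In the knockout sample Id2 led at 385, followed by Id3 at 62.7, Tcf12 at 47.9, Tcf4 at 21.8 and Tcf3 at 6.13. In the control sample Id2 led at 914, followed by Tcf12 at 29.2, Id3 at 8.66, Tcf4 at 6.00 and Tcf3 at 5.002. Id3 thus ranked above Tcf12 in the knockout sample and below it in the control sample. With median coding lengths Id3 and Tcf12 stood at 36.2 and 37.8 in the knockout sample, so their order there depends on the transcript length used. The order of Tcf4 and Tcf3 in the control sample likewise turned round with those lengths, to 3.06 for Tcf4 and 4.99 for Tcf3. With the longest annotated transcripts Tcf3 stood above Tcf4 in both libraries, at 5.87 against 2.39 in the knockout sample and 4.79 against 0.658 in the control sample. The 1st place of Id2 in both libraries held with every length tried.

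The Id transcripts summed to 448 CPM per kilobase in the knockout sample and 923 CPM per kilobase in the control sample. The E protein transcripts summed to 75.9 CPM per kilobase in the knockout sample and 40.2 in the control sample. The ratio of Id to E protein transcripts was 5.91 in the knockout sample (5.56 to 6.28) and 22.9 in the control sample (21.4 to 24.5). It was 3.88-fold lower in the knockout sample (3.54 to 4.25). The sum of the Id transcripts was carried by Id2, and its difference ran against that of Id3.

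The inhibitors differed from each E protein partner in size or direction. Relative to Tcf12, Id3 was 4.42-fold higher (3.43 to 5.74) and Id2 3.89-fold lower (3.50 to 4.31) in the knockout sample. Relative to Tcf4, the E protein transcript with the largest fold, Id3 was 1.99-fold higher (1.38 to 2.85) and Id2 8.63-fold lower (6.62 to 11.4). Relative to Tcf3, Id3 was 5.91-fold higher (4.32 to 8.11) and Id2 2.90-fold lower (2.36 to 3.57). These ratios do not depend on library size or transcript length.

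The makeup of the E protein transcripts differed as well. Tcf12 supplied the greatest part of the per-kilobase sum, 63.2% in the knockout sample and 72.7% in the control sample. Tcf4 supplied 28.8% in the knockout sample and 14.9% in the control sample, and Tcf3 supplied 8.07% in the knockout sample and 12.4% in the control sample. With median coding lengths Tcf4 supplied 20.3% in the knockout sample and 9.85% in the control sample. With the longest transcripts Tcf4 supplied 10.98% in the knockout sample and 4.796% in the control sample, below the 26.9% in the knockout sample and 35.0% in the control sample of Tcf3. The ratio of Tcf4 to Tcf12 was 2.22-fold higher in the knockout sample (1.67 to 2.97), and that of Tcf12 to Tcf3 was 1.34-fold higher (1.06 to 1.68).

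**Figure D3:**
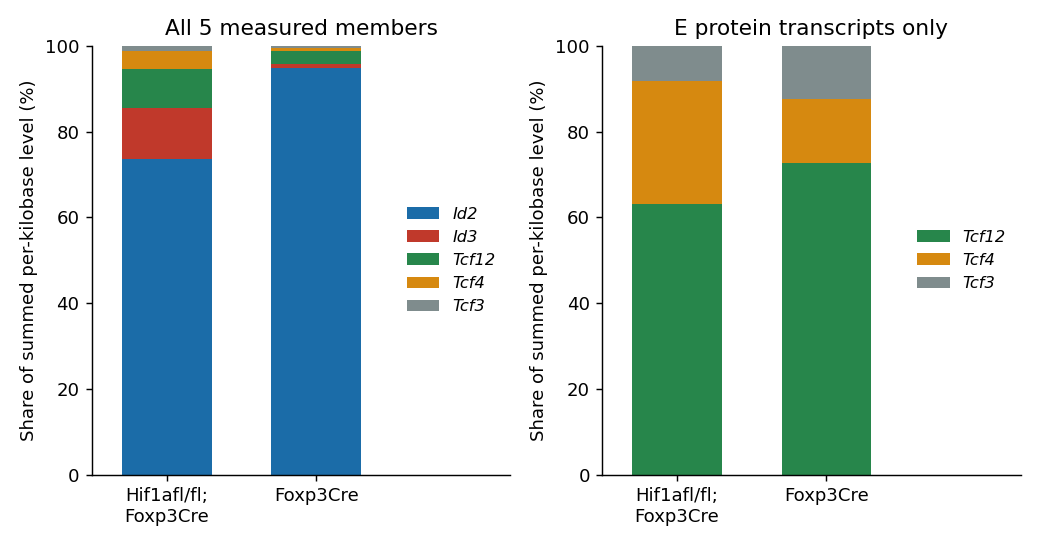
Share of the summed per-kilobase level (%) taken by each gene in the Hif1afl/fl;Foxp3Cre and Foxp3Cre libraries, for all 5 measured members (left) and for the E protein transcripts alone (right). Of all members, Id2 takes 73.5% in the knockout sample and 94.9% in the control sample, and Id3 takes 11.97% in the knockout sample and 0.900% in the control sample.

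The genes nearest to Id2 by their levels in both libraries were Npm1 and Ncl, which encode nucleolar proteins, and Aldoa, which encodes the glycolytic enzyme aldolase A. Their distances on log2(CPM + 0.5) over the 2 libraries were 0.13, 0.18 and 0.24, and they were 2.199-fold, 2.21-fold and 2.43-fold lower in the knockout sample. The genes nearest to Id3 were Amica1, which encodes a junctional adhesion protein, St6gal1, a sialyltransferase gene, and Btla, an inhibitory receptor gene. Their distances were 0.03, 0.17 and 0.20, and they were 7.06-fold, 6.81-fold and 5.92-fold higher. Genes picked for nearness in these levels must have folds near those of Id2 and Id3, so the likeness follows from the choice.

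Genes that stand with Id2 in effector T cells and with Id3 in naive and memory T cells were examined next; both lists were drawn up with earlier results of these data known and are no independent evidence. Of 15 listed naive and memory genes, of 16 in the list, 13 exceeded 2-fold upward and 0 downward, beside 10.9% and 8.41% of all listed genes. The median log2 ratio was 2.22 (binomial interval 1.503 to 2.97) beside 0.0054 over all listed genes. Cxcr5 and Myb, with 14 and 31 control counts, were listed only through their knockout counts. Slamf6, a receptor of the SLAM family, stood at 265 CPM in the knockout sample and 14.9 CPM in the control sample (17.8-fold higher; 15.4 to 20.65). Bach2, which restrains effector differentiation, and Tcf7 were 18-fold and 31.9-fold higher; Tcf7, despite its symbol, encodes a factor of the HMG box family and no E protein. Il7r was at a log2 ratio of -0.33 and Foxo1 at 0.79.

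Of 13 listed effector genes, of 16 in the list, 8 exceeded 2-fold downward and 2 upward, beside 8.41% and 10.9% of all listed genes. The median log2 ratio was -1.18 (-3.95 to 0.76). Prdm1, which encodes the effector regulator Blimp-1, stood at 41.1 CPM in the knockout sample and 218 CPM in the control sample (5.30-fold lower; 4.81 to 5.86). Klrg1, Il1rl1 and Il10 were 36.6-fold, 35.6-fold and 15.7-fold lower. Itgae, an integrin gene, and Ahr, a ligand-activated bHLH factor, were 2.74-fold (2.04 to 3.72) and 2.72-fold (2.18 to 3.41) higher. Nfil3 and Rora were at log2 ratios of -0.56 and -0.66.

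Genes reported to be under E protein or Id control in T cells went both ways. Of 17 listed genes, of 26 in the list, 4 exceeded 2-fold upward and 3 downward, beside 10.9% and 8.41% of all listed genes. The median log2 ratio was 0.35 (-0.34 to 0.88). Bcl6, the repressor of follicular T cells, stood at 14.1 CPM in the knockout sample and 1.88 CPM in the control sample, from 162 knockout and 25 control counts (7.50-fold higher; 4.90 to 11.9). Cxcr5, the follicle homing receptor, was 7.27-fold higher (4.11 to 13.8) from 88 knockout and 14 control counts. The control counts of Bcl6 and Cxcr5 lie below 50.5, the lowest mean of a listed gene. Both were thus listed only through their knockout counts. Lef1, a relative of Tcf7, was 4.01-fold higher (3.58 to 4.49). Gata3, a factor of type 2 and tissue T cells, was 4.43-fold lower (4.2 to 4.67). Gfi1, a transcriptional repressor, was 2.77-fold lower (2.19 to 3.53), and Foxp3 was 2.24-fold lower (2.02 to 2.48). Socs1 stood at a log2 ratio of -0.24, and Cdkn1a at 0.10, with a range of -0.11 to 0.16 over the scalings and the length and GC correction. Tcf7, Lef1, Il7r, Foxo1 and Cxcr5 are in both this and the naive and memory list.

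**Figure D4:**
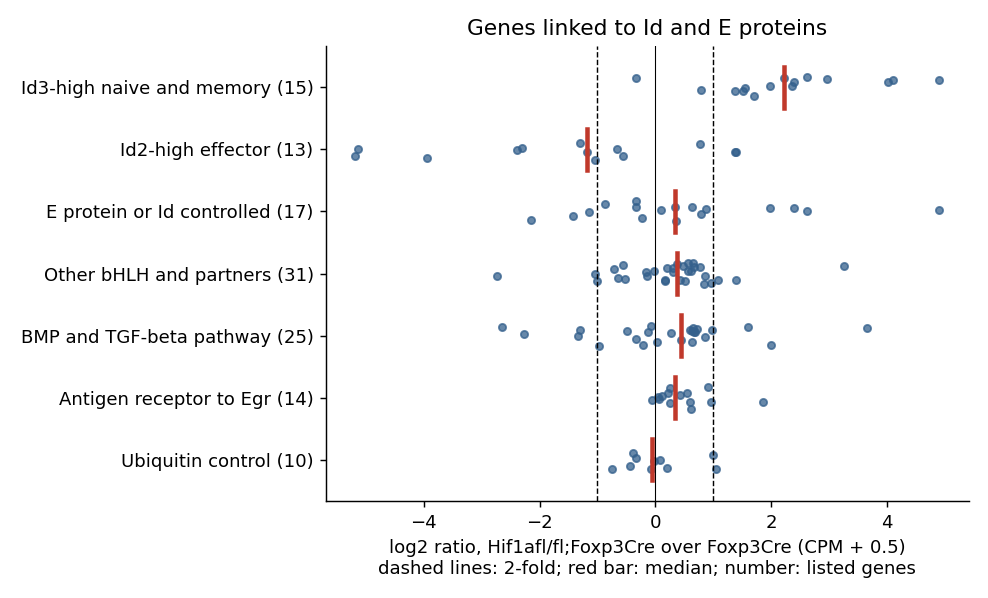
log2 ratio of Hif1afl/fl;Foxp3Cre over Foxp3Cre for the listed genes of 7 lists linked to Id and E proteins; each point is a gene, the red bar is the median and dashed lines mark 2-fold. The naive and memory list has its median at 2.22 and the effector list at -1.18, while the other medians lie between -0.05 and 0.44.

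Next came 31 listed bHLH factors and E protein partners outside the Id and E protein genes, of 46 in the list. Of these, 26 were within 2-fold, 3 exceeded 2-fold upward and 2 downward (median log2 ratio 0.37, -0.02 to 0.61). These counts were near the shares of all listed genes, 10.9% upward and 8.41% downward. Mitf, a bHLH factor of the leucine zipper class that macrophages also express, was 11.8-fold higher (7.81 to 18.6), from 255 knockout and 25 control counts. Its control count lies below 50.5, the lowest mean of a listed gene, so its listing rests on the knockout sample. Cbfa2t3, a corepressor of the ETO family that binds E proteins, was 2.25-fold higher (1.62 to 3.17), and Ahr is given above. Myc, a bHLH activator of growth genes, was 6.76-fold lower (6.03 to 7.61), and Epas1, the HIF-2 alpha gene, was 2.26-fold lower. Epas1 had 31 knockout and 81 control counts, so its listing rests on the control sample. Kat2a, an acetyltransferase gene, lay at the limit: its log2 ratio on CPM + 0.5 was just above -1, and its scaled counts were 2.04-fold lower (1.67 to 2.52). Arnt and Arntl, which encode dimerization partners, were at log2 ratios of -0.02 and -0.14. Over the scalings and the length and GC correction Arnt ran from -0.23 to 0.02.

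BMP and TGF-beta signals act on Id genes through Smad factors. Of 25 listed genes of this pathway, of 39 in the list, 3 exceeded 2-fold upward and 4 downward (median log2 ratio 0.44, -0.22 to 0.67). Of all listed genes, 10.9% exceeded 2-fold upward and 8.41% downward. Among ligands, Inhba, an activin subunit gene, was 15.9-fold higher (10.4 to 25.5), from 317 knockout and 23 control counts, and Bmp7 was 2.59-fold lower (1.94 to 3.52). The BMP receptor gene Bmpr1a stood at 4.87 CPM in the knockout sample and 25.4 CPM in the control sample (5.20-fold lower; 3.91 to 7.03). Smad1, a signal transducer of BMP receptors, was 4.44-fold higher (3.16 to 6.36), from 165 knockout and 43 control counts. The control counts of Inhba and Smad1 lie below 50.5, the lowest mean of a listed gene, so both were listed through their knockout counts. Of the genes that present or activate TGF-beta, Lrrc32 was 3.05-fold higher (2.85 to 3.28), and Furin, a protease gene, and Itgav were 6.39-fold (5.66 to 7.24) and 2.52-fold (2.37 to 2.68) lower. Bmpr2 and Tgfb1 were at log2 ratios of 0.02 and -0.07. Over the scalings and the length and GC correction they ran from -0.21 to 0.06 and from -0.27 to 0.06.

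Antigen receptor signals induce Id3 through Egr factors. Of 14 listed genes of this axis, of 16 in the list, 1 exceeded 2-fold upward and 0 downward (median log2 ratio 0.34, 0.06 to 0.91). Of all listed genes, 10.9% exceeded 2-fold upward and 8.41% downward. The gene past 2-fold was Egr2, 4.10-fold higher (2.80 to 6.15), from 124 knockout and 35 control counts. Its control count lies below 50.5, the lowest mean of a listed gene, so its listing rests on the knockout sample. Egr1 was at a log2 ratio of 0.04; over the same settings it ran from -0.16 to 0.08. Of 10 genes for ubiquitin control of Id and E proteins, all listed, 9 were within 2-fold, with a median of -0.05 (-0.43 to 0.997). The 1 gene past 2-fold was higher, beside the same 10.9% of all listed genes. Skp2, a ubiquitin ligase subunit gene, was 2.23-fold higher (1.52 to 3.32), from 81 knockout and 42 control counts. Cdc20, an activator of the anaphase-promoting complex, was within 2-fold only through the pseudocount, with a log2 ratio of 0.997 and scaled counts 2.13-fold higher (1.49 to 3.07). The control counts of Skp2 and Cdc20, 42 and 50, likewise lie below the lowest listed mean. Usp1, a deubiquitinase gene that stabilizes Id proteins, and Fzr1 were at 0.07 and -0.03, and over these settings they ran from -0.14 to 0.11 and from -0.24 to 0.0073.

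Other cell types can carry these transcripts: macrophages, dendritic cells, B cells and endothelial cells also express Id or E protein genes. All 7 listed macrophage markers were higher in the knockout sample, and their median log2 ratio was 5.13. For Fcgr1, Pf4 and Lyz2 the listing itself favoured this direction, as given above. Ctss, the one with the most counts, was 9.24-fold higher, and Adgre1, Csf1r and the C1q genes of that list were not among the listed genes. Of 11 plasmacytoid dendritic cell markers 5 were listed, with a median of -0.06 and a summed level of 218 CPM in the knockout sample and 225 CPM in the control sample; Zeb2, with the most counts, was 1.70-fold higher, Irf8 was at -1.38, and Siglech was not among the listed genes. Of 10 conventional dendritic cell markers 7 were listed and 5 were at least 2-fold higher and 1 lower (median 1.38). Of all listed genes, 10.9% were higher and 8.41% lower by this rule. H2-Ab1, with the most counts, was at 626 CPM in the knockout sample and 156 CPM in the control sample. Xcr1 was 3.37-fold lower (2.43 to 4.74), from 47 knockout and 183 control counts. Its knockout count lies below 50.5, the lowest mean of a listed gene, so its listing rests on the control sample. Flt3, at a log2 ratio of 0.99, was 2.03-fold higher by scaled counts. Of 10 B cell markers 3 were listed (median -0.27), with Ighm 2.27-fold higher; Ms4a1 and Pax5 were not among the listed genes. Of 9 natural killer and group 2 innate lymphoid markers 5 were listed (median 2.79). By the same rule 4 of them were at least 2-fold higher and 1 lower. Tyrobp, Arg1, Klrd1 and Klrk1 were 30.5-fold, 13.2-fold, 9.75-fold and 3.65-fold higher, and Areg was 6.38-fold lower. Klrd1 had 118 knockout and 14 control counts, so its listing rests on the knockout sample. Which cells carried the markers of these lists was not tested.

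Of 10 endothelial markers 2 were listed, Pecam1 at a log2 ratio of 0.50 and Kdr at 3.73. Kdr had 495 knockout and 37 control counts, so its listing rests on the knockout sample. Of 10 stromal markers 2 were listed, Dcn, 3.47-fold higher, and Mfap5, at -0.49. Of 2 CD8 T cell markers Cd8b1 was listed, at -0.23, and of 7 adipocyte markers 0 were listed. The part of these cell types in the values of Id3, Tcf4 and the other members was not tested.

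**Figure D5:**
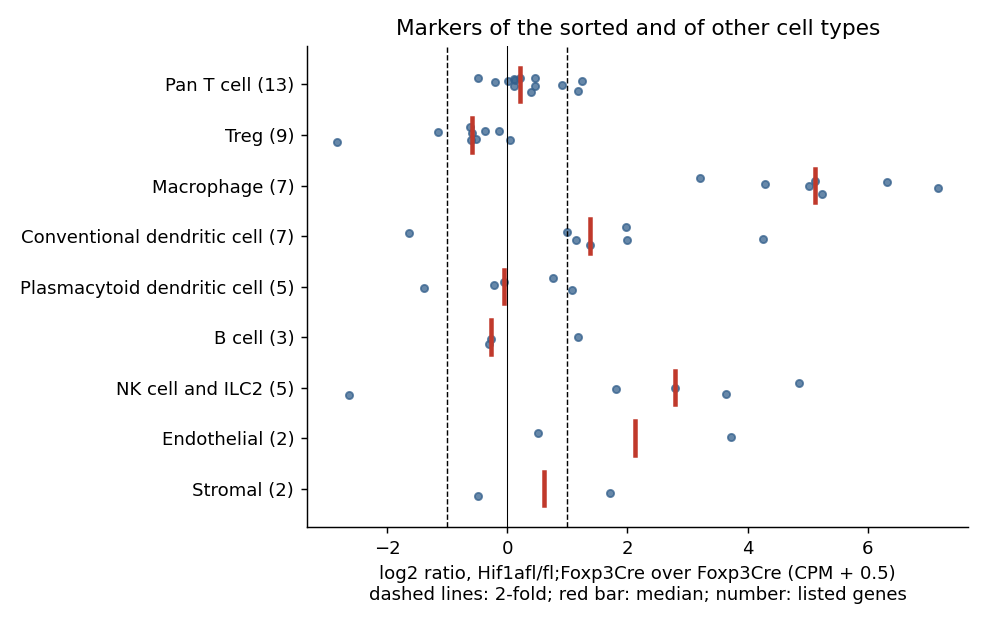
log2 ratio of Hif1afl/fl;Foxp3Cre over Foxp3Cre for the listed markers of T cells, Tregs and further cell types; each point is a gene, the red bar is the median and dashed lines mark 2-fold. The 7 macrophage markers lie between 3.21 and 7.17, to the right of the other lists' medians, and the pan T cell median is at 0.21.

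The direction of all 5 measured members was the same under each scaling tried. Scaling on pan T cell markers moved the median of all genes by -0.21 and left Id2 at a log2 ratio of -1.45, Id3 at 2.56, Tcf4 at 1.58, Tcf12 at 0.50 and Tcf3 at 0.08. It also turned the split of genes at least 2-fold apart from 1115 higher and 859 lower (56.5% higher) to 846 higher and 1245 lower (40.5% higher).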

How the data were processed

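Transcripts were measured by RNA sequencing in adipose Tregs from 2 libraries, 1 per genotype. The library name in each sample's description tied its count column to it. The submitters' processing notes name Bowtie2 2.2.3, TopHat2 2.0.12, HTSeq 0.6.1, edgeR and the build mm8; in the sources used here the annotation, strand setting and handling of reads shared by genes are not given. The authors deposited raw read counts for each gene. The authors' log2 fold change, likelihood ratio score, p-value and adjusted p-value are edgeR columns, per the file headers. Beside them the authors deposited the mean of both counts and their signed quotient, each treated as a score. edgeR's likelihood ratio test with TMM scaling and a dispersion of 0, rerun here, differed from the deposited log2 fold changes by at most 9.77e-15. For deposited likelihood ratio scores above 1, the largest relative difference was 1.99e-12. Because these scores match at a dispersion of 0, the deposited p-values cover counting error only.

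Counts were scaled to counts per 1000000 (CPM) of effective library size, using TMM from edgeR 4.0.16 in R 4.3.3. Knockout over control log2 ratios used CPM + 0.5. A fold is the ratio of scaled counts, with a 95% interval by the exact binomial method of Clopper and Pearson given the summed count, from scipy 1.17.1. The ratio of 2 ratios has a conditional odds ratio interval. The interval of the Id to E protein ratio is a delta-method one. These intervals describe counting error alone, and PCR copies are not independent molecules. A spread between animals cannot be had from 1 library per genotype, so no p-value was computed and genes are counted by size, at least 2-fold on the log2 ratio. Levels of different genes are compared per kilobase of the median annotated transcript (GENCODE M21), which gave a length for 10200 of 10219 genes. A symbol turned into a date was restored from its Ensembl ID in 14 cases. A list's median is given with the binomial interval from the order of its members, or with their range below 6 members. That interval treats the chosen genes as independent draws, which they are not, and is no test of a list against all listed genes.

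The members and lists were chosen with earlier results of these data known. The text names all members, Hif1a, the 3 genes nearest to Id2 and to Id3 in level in both libraries, and from each list up to 4 genes per direction at least 2-fold apart and up to 2 nearest to no difference; in marker lists it names the member with the most counts. Some genes that this rule names are not reported here. Other genes named were chosen after their values were seen. The alternatives were other scalings, pseudocounts, level filters, size rules and transcript lengths, the authors' fold changes and a correction for length and GC content (robust spline, statsmodels 0.14.6). The median coding length was chosen after seeing the data.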

Additional observations from a re-analysis of the deposited data

How the results depend on the processing

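No paired analysis was possible because there was 1 library per genotype and no shared replicate number. The precision is set by counting alone, and the interval of Tcf3 included no difference. Of 246 alternative values, 218 stayed inside the counting or binomial interval of the value given, or within 1.5 times a count, among them all 77 alternative list medians. This tally is no measure of robustness. Some alternatives could not differ, as the filter at 10 CPM leaves the ratio of each member unchanged. The intervals of list medians are wide, -3.95 to 0.76 for the effector list, while scaling on pan T cell markers shifts all genes by -0.21. Scaled on pan T cell markers, the log2 ratio of Id2 became -1.45, that of Tcf12 0.50 and that of Hif1a -0.91. Under the 4-fold rule 1 member was higher and 0 lower, beside 350 (3.42%) and 161 (1.58%) of all listed genes. Of the 119 listed genes of the lists, 11 were higher and 9 lower by this rule. At 2-fold, 23 of the 119 were higher and 17 lower, beside 10.9% and 8.41% of all listed genes. Under the 1.5-fold rule 2067 genes (20.2%) were higher and 1886 (18.5%) lower, with 48 list genes higher and 24 lower. Among genes of at least 10 CPM, 15 list genes were higher and 15 lower at 2-fold, beside 797 and 655 of all such genes. Per kilobase of the median, longest and mean annotated transcript, Id2 exceeded Id3 by 6.14, 6.86 and 5.77 times in the knockout sample and by 105, 118 and 99.2 times in the control sample. With the longest, the mean and the median coding length, the Id to E protein ratio was 13.1, 7.61 and 7.66 in the knockout sample and 43.3, 27.4 and 29.5 in the control sample; the ratio of knockout over control was 0.258 with the median and 0.301 with the longest length. Annotated lengths differ most for Tcf4, and which isoforms were present was not tested. The knockout over control ratio of Id3 to Id2 ran from 13.6 to 17.5 over the alternatives.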

Other observations

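Within the wider bHLH group, Myc was at 28.9 CPM in the knockout sample and 195 CPM in the control sample. Max, the shared dimerization partner, had a log2 ratio of 0.57. The antagonist genes Mxd1, Mxd4, Mxi1 and Mnt had log2 ratios of 0.37, 0.85, 0.84 and 0.76. None of the antagonists was past 2-fold, and these genes were singled out after their values were seen.

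The protein-coding genes next to the members in the RefSeq order (GRCm38.p6) were compared as well. Beside Id2, which was 2.37-fold lower in the knockout sample, Kidins220 was 1.26-fold higher (1.16 to 1.38) and Rnf144a 2.06-fold higher (1.42 to 3.03), the second from 82 knockout and 46 control counts. The control count of Rnf144a lies below 50.5, the lowest mean of a listed gene, so its listing rests on the knockout sample. Beside Id3, which was 7.24-fold higher, Rpl11 was 1.41-fold lower (1.36 to 1.47) and E2f2 1.79-fold higher (1.31 to 2.46). Beside Tcf12, Zfp280d was 1.56-fold higher (1.41 to 1.73), close to the 1.64-fold of Tcf12 itself. Beside Tcf3, Uqcr11 was 1.85-fold lower (1.74 to 1.98). No listed gene was next to Tcf4.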
